A study of Mus musculus with 8 samples.

Results

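The 8 BMP family ligand genes described here are Bmp2, Bmp3, Bmp4, Bmp5, Bmp6, Bmp7, Gdf6 and Gdf10. They were chosen by name from a table of 53801 mouse genes, and all 8 passed the filter on low counts that left 15643 genes to test. RNA came from stromal cells of the mouse small intestine, gated as YFP+ and negative for CD45 (a leukocyte protein) and CD31 (an endothelial protein), and sorted on surface PDGFRα into PDGFRα- and PDGFRα+ fractions with 4 libraries each. All libraries came from mice named LTβRfloxPDGFRα/YFP in the labels, so both fractions carry the floxed lymphotoxin β receptor gene and the YFP marker, and libraries lacking the floxed allele were not analysed here. How the YFP is switched on, how old the mice were, their sex and whether each library came from separate mice is information the labels leave out. The p-values then reflect the scatter among these 8 libraries alone, part or all of which may be technical.

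Bone morphogenetic proteins (BMPs) and the related growth and differentiation factors (GDFs) are secreted dimers of the TGF-β superfamily. They bind pairs of type I and type II receptor kinases, which phosphorylate SMAD1, SMAD5 and SMAD9 and thereby switch on genes such as the ID family. In the intestine much of the BMP signal is made by stromal cells beneath the epithelium, where it favours differentiation on the villus, while secreted antagonists such as gremlin 1 keep it low around the stem cells at the crypt base.

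The ligand genes are paralogues, and their coding sequences are most alike where they encode the carboxy end of the mature ligand. The stretches below are the last 111 coding bases before the stop codon, from the paired cysteine codons that all 8 genes share there, for the 3 genes whose level differed most clearly between the fractions (Bmp5, Bmp6, Gdf6) and for the pair with the highest levels (Bmp4, Bmp2). They are shown because reads are assigned to one paralogue or another by such differences, and capitals mark the 37 bases that are identical in all 8 genes (GENCODE M21 transcripts, GRCm38, 5′ to 3′ on the coding strand).
Bmp5: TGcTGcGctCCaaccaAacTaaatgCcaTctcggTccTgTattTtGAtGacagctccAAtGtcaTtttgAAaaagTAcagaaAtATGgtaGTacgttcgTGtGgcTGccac
Bmp6: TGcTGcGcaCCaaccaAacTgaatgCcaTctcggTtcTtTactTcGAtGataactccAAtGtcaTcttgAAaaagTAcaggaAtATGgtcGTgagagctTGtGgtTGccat
Gdf6: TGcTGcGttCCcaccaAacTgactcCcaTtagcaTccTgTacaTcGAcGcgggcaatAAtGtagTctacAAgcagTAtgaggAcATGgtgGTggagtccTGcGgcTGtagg
Bmp4: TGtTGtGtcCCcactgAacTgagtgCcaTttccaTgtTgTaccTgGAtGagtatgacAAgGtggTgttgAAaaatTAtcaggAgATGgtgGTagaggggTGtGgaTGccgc
Bmp2: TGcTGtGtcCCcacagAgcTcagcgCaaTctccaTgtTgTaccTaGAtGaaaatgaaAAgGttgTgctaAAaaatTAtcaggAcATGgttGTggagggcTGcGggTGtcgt

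These stretches lie on the plus strand at chr9:75898469-75898579 (Bmp5), chr13:38498955-38499065 (Bmp6), chr4:9860171-9860281 (Gdf6) and chr2:133561602-133561712 (Bmp2), and on the minus strand at chr14:46383862-46383972 (Bmp4), each inside 1 exon. Over the 28 pairs of members the identity ran from 51.4% to 83.8%. The closest pair was Bmp5 and Bmp6 at 83.8%, followed by Bmp2 with Bmp4 and Bmp5 with Bmp7, both at 80.2%, Bmp6 with Bmp7 at 77.5% and Bmp3 with Gdf10 at 70.3%. The longest run of bases shared by any pair here was 14 bases. Over their whole transcripts no member shared any stretch of 50 bases with another member, on either strand, so a read of 50 bases without a mismatch has 1 source among them.

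Overlap with other genes touches 3 members. Exons of Bmp5 (chromosome 9, 75775364 to 75900310) overlap those of Gm26903 on the other strand over 1878 of 4025 exonic bases, and the stretch of Bmp5 shown above lies within the span of Gm26903. The sources used here do not state whether counting used strand, and without strand the reads of such a pair cannot be told apart. Gm26903 itself was counted 18 to 55 times per PDGFRα- library and 1 to 30 times per PDGFRα+ library, against 225 to 646 and 614 to 2424 times for Bmp5. Bmp6 (chromosome 13, 38345107 to 38500302) overlaps Txndc5 over 224 of 3900 exonic bases, and Bmp4 (chromosome 14, 46383520 to 46390669) overlaps Gm15217 over 89 of 2248, both on the other strand. Txndc5 was counted 2268 to 6840 times per PDGFRα- library and 2917 to 8905 times per PDGFRα+ library. For Bmp6 these counts were lower, at 669 to 1353 and 1182 to 3384, and for Gm15217 they were 0 to 13 and 0 to 11. Bmp2 (chromosome 2, 133552159 to 133562885), Bmp3 (chromosome 5, 98854415 to 98884396), Bmp7 (chromosome 2, 172868012 to 172940321), Gdf6 (chromosome 4, 9844372 to 9862345) and Gdf10 (chromosome 14, 33923587 to 33937983) had no exon overlap with another gene.

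Total counts ran from 12.9 to 35.1, in units of 1000000, and levels below are CPM, counts per 1000000 of the TMM-scaled library size. RNA of the sort marker Pdgfra was 652 ± 124 CPM (SD, n = 4) in PDGFRα- and 597 ± 69.2 CPM (SD, n = 4) in PDGFRα+ libraries (edgeR adjusted p = 0.971), so it gives no check of the labels. Ltbr stood at 67.9 ± 27.3 and 64.0 ± 9.21 CPM (edgeR adjusted p = 0.991), and counts over the whole gene do not check the floxed allele. The 5 fibroblast markers Col1a1, Col1a2, Dcn, Lum and Pdgfra were present in every library, summing to 64301 to 93494 CPM in PDGFRα- and 45244 to 63368 CPM in PDGFRα+ libraries. Of these, Col1a1 and Col1a2 passed with the replicate number in the model (edgeR adjusted p = 0.0155 and 0.0137), where 2.27% of all tested genes did. Col1a1 was at 38410 to 53118 and 24445 to 36171 CPM, and Col1a2 at 20811 to 30858 and 14962 to 20327 CPM. Dcn, Lum and Pdgfra did not pass and overlapped between the fractions. Of 6 telocyte markers, Foxl1 was at 0 counts in all 8 libraries. The 6 summed to 566 to 820 CPM in PDGFRα- and 619 to 740 CPM in PDGFRα+ libraries. Of these sums Pdgfra alone gave 475 to 750 and 497 to 656 CPM. F3 was at 26.0 to 44.1 and 33.5 to 43.6 CPM, and Sox6 at 3.26 to 26.9 and 2.03 to 41.0 CPM. Wnt5a was at 27.6 to 39.0 CPM in PDGFRα- and 19.6 to 28.7 CPM in PDGFRα+ libraries (edgeR adjusted p = 0.284 with the number). Frzb, of the same list, was at 0.654 to 9.53 CPM in PDGFRα- and 10.01 to 37.4 CPM in PDGFRα+ libraries (edgeR adjusted p = 0.00192 with the number). Of the 5 tested telocyte markers Frzb alone passed, where 2.27% of all tested genes did, and its part in the results below was not tested. PDGFRα- library 4 stood apart in RNA of the gated-out endothelium, with 429 CPM over 6 markers against 17.5 to 63.6 CPM in PDGFRα- libraries 1 to 3 and 6.35 to 98.7 CPM in the PDGFRα+ libraries. PDGFRα- libraries 3 and 4 held more leukocyte marker RNA, 59.3 and 83.9 CPM over 6 markers against 11.0 to 18.9 CPM in the other 6 libraries. Smooth muscle marker RNA was more abundant. Its 5 markers summed to 306, 1562, 872 and 1028 CPM in PDGFRα- libraries 1 to 4. In PDGFRα+ libraries 1 to 4 they summed to 363, 1217, 1011 and 797 CPM. Library 1 was thus the lowest and library 2 the highest of each fraction. The part of smooth muscle RNA in the values of the members was not tested. In such bulk libraries, fewer cells of a type and less RNA per cell cannot be told apart.

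Bmp5 and Bmp6 were higher, and Gdf6 lower, in PDGFRα+ than in PDGFRα- libraries, and in edgeR with its standard filter on low counts all 3 differences passed the threshold with the replicate number in the model and none did with the group alone. With the group as the only term, 0 of 8 members passed an adjusted p of 0.05 (edgeR quasi-likelihood, Benjamini-Hochberg over 15643 genes), where 0.243% of all tested genes did, 0.192% as higher and 0.0511% as lower. Before adjustment 3 of the 8 members had a p under 0.05 in that fit, a level reached by 6.95% of all tested genes. DESeq2 with the group alone called Bmp5 and Bmp6 higher, with 1.37% of its genes called, and limma-voom called 0 members and 0.192% of genes. Without a filter on low counts, edgeR with the group alone called all 3 (adjusted p = 2.32e-07 for Bmp5, 0.00117 for Bmp6 and 9.11e-05 for Gdf6). Calls rose over the whole table in that fit, to 277 genes against 38 with the filter. With the replicate number as a further term in edgeR, 2 members were higher (1.34% of all tested genes) and 1 lower (0.933%), so 3 of 8 stood against 2.27% of genes in either direction, and 5 of 8 against 11.7% at an unadjusted p under 0.05. DESeq2 and limma-voom with the number called the same count of members in each direction, with 5.04% and 3.72% of all genes called. The number is given beside the group because the dispersions in the authors' deposited table match a model that holds it, although the labels do not say what same-numbered libraries share. By the authors' deposited table, a share of 4.82% of genes has an adjusted p under 0.05, 2.3% as higher and 2.52% as lower, and Bmp5 (log2 fold change 1.49), Bmp6 (0.93) and Gdf6 (-1.29) are among them. The median log2 fold change of the 8 members was 0.27 with the group alone and 0.41 with the number, against -0.01 in both for all tested genes. The members and the gene lists below were chosen with earlier results of these data known. Their counts and medians beside those of all tested genes are therefore descriptions and no test of the set.

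**Figure D1:**
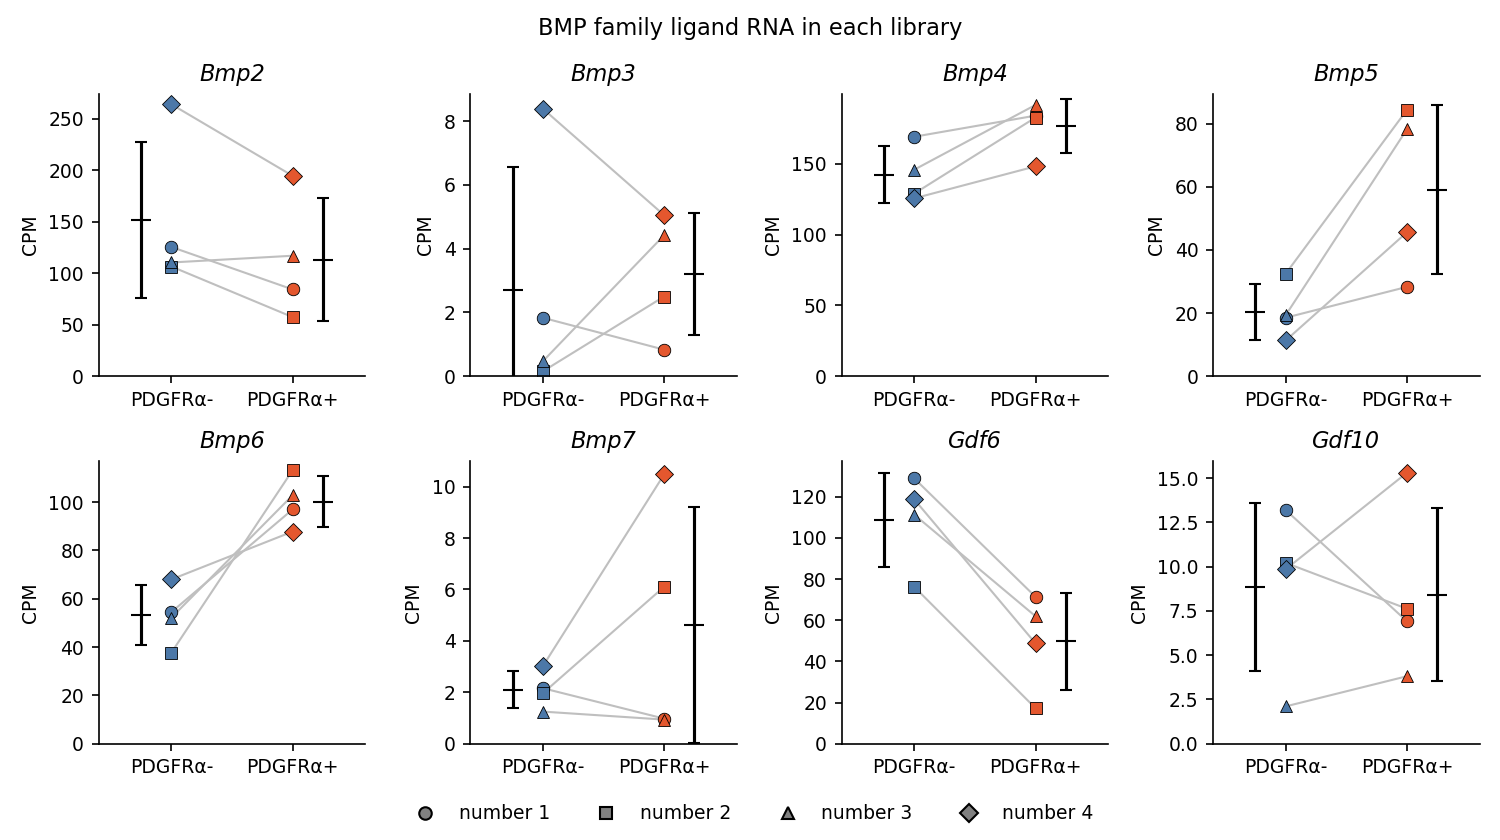
CPM of each ligand gene (y axis, linear from 0, scaled per gene) in the 4 PDGFRα- (blue) and 4 PDGFRα+ (red) libraries, with grey lines joining libraries of the same replicate number and black bars for mean ± SD, clipped at 0. All 4 lines run upward for Bmp4, Bmp5 and Bmp6 (10.3% of all tested genes) and all 4 downward for Gdf6 (10.5%). Those of Bmp2, Bmp3, Bmp7 and Gdf10 run in both directions.

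Bmp5 belongs with Bmp6 and Bmp7 to one subfamily of BMP ligands. It stood at 18.5, 32.5, 19.3 and 11.3 CPM in PDGFRα- libraries 1 to 4 and at 28.3, 84.4, 78.2 and 45.6 CPM in PDGFRα+ libraries 1 to 4. The groups overlapped by 1 library on each side, since PDGFRα- library 2 lay above PDGFRα+ library 1, but each PDGFRα+ library was above the PDGFRα- library of its own number, by 1.53-fold for number 1, 2.60-fold for number 2, 4.05-fold for number 3 and 4.03-fold for number 4. Such an order in 4 of 4 same-numbered pairs, in the upward direction, was seen in 10.3% of all tested genes. PDGFRα+ libraries exceeded PDGFRα- libraries by a log2 fold change of 1.53 ± 0.38 (SE, 95% interval 0.71 to 2.36, edgeR adjusted p = 0.195) with the group alone and 1.50 ± 0.23 (SE, interval 1.01 to 2.00, edgeR adjusted p = 0.00215) with the number. Without number 3 the latter adjusted p was 0.0551.

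Bmp6 encodes a ligand best known for its control of hepcidin and iron in the liver. Its values were 54.5, 37.7, 52.2 and 68.0 CPM in PDGFRα- libraries 1 to 4 and 97.0, 113, 103 and 87.8 CPM in PDGFRα+ libraries 1 to 4. The groups did not overlap, as was the case in the same direction for 2.69% of all tested genes, and its spread within PDGFRα+ libraries (coefficient of variation 10.6%) was the smallest of the 8 members in either group. The difference was 1.89-fold with the group alone (log2 fold change 0.92 ± 0.19 SE, interval 0.51 to 1.32, edgeR adjusted p = 0.0705) and 1.92-fold with the number (0.94 ± 0.18 SE, edgeR adjusted p = 0.00826). Leaving out PDGFRα- library 4 took the first of these below the threshold (edgeR adjusted p = 0.0355), and leaving out number 3 took the second above it (0.0969).

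Gdf6 encodes a ligand known from joint and skeletal patterning. It was the member with the clearest lower level, at 129, 76.2, 111 and 119 CPM in PDGFRα- libraries 1 to 4 and 71.3, 17.2, 61.9 and 48.7 CPM in PDGFRα+ libraries 1 to 4. The groups did not overlap, as in the same direction for 2.36% of all tested genes, and within each group library 2 was the lowest. The log2 fold change came to -1.13 ± 0.37 (SE, interval -1.95 to -0.30, edgeR adjusted p = 0.430) with the group alone and -1.27 ± 0.20 (SE, interval -1.70 to -0.85, edgeR adjusted p = 0.00321) with the number. Same-numbered PDGFRα- libraries were 1.81-fold, 4.43-fold, 1.80-fold and 2.44-fold above their PDGFRα+ counterparts for numbers 1 to 4. With the number in the model, Gdf6 passed the threshold whichever number was left out (edgeR adjusted p at most 0.0196).

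**Figure D2:**
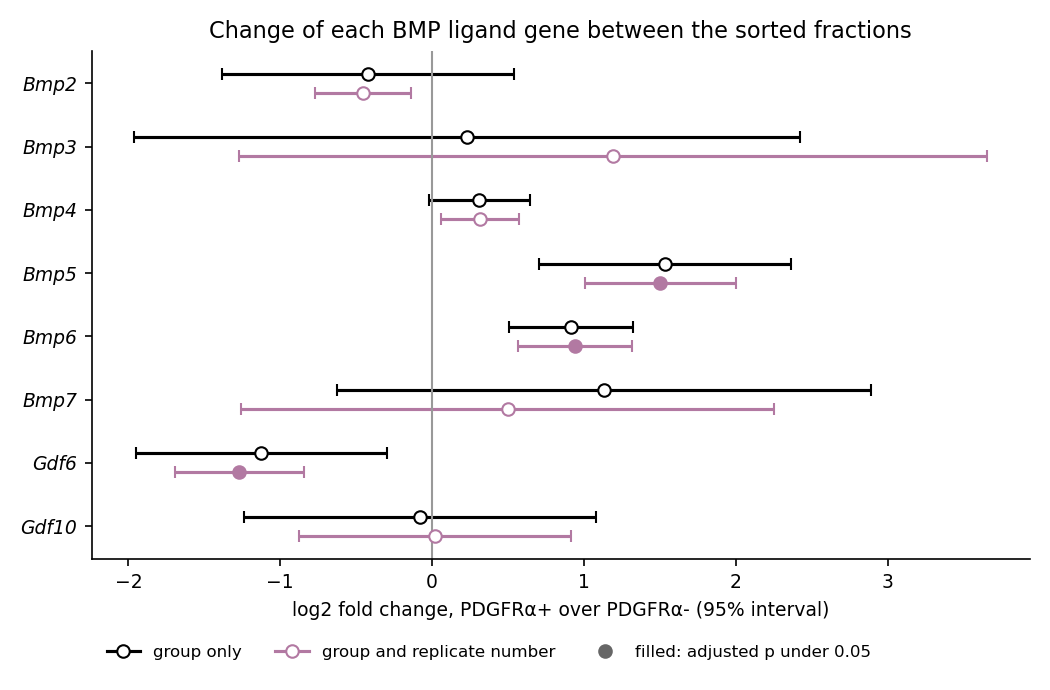
The log2 fold change of each ligand gene, PDGFRα+ over PDGFRα- (x axis), with its 95% interval, from the edgeR model with the group alone (black) and with group and replicate number (purple); filled points had an adjusted p under 0.05. Filled points are Bmp5 at 1.50, Bmp6 at 0.94 and Gdf6 at -1.27, all from the model with the number, and the intervals of Bmp3 and Bmp7 span more than 2 log2 units.

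Bmp4, a stromal ligand and a known target of hedgehog signalling in the gut, had the highest mean of the 8 in PDGFRα+ libraries and varied little. It stood at 169, 129, 146 and 126 CPM in PDGFRα- libraries 1 to 4 and at 184, 183, 192 and 148 CPM in PDGFRα+ libraries 1 to 4. PDGFRα+ libraries 1 to 3 lay above all PDGFRα- libraries and library 4 lay among them, with each PDGFRα+ library above its same-numbered partner. The log2 fold change of 0.31 ± 0.16 (SE, interval -0.02 to 0.64, edgeR adjusted p = 0.772) did not pass the threshold, nor did 0.31 ± 0.12 with the number (SE, edgeR adjusted p = 0.268). The upper ends of both intervals, 0.64 and 0.57, lie below the lower end for Bmp5 in the same model, but the difference between the 2 genes was not tested.

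Bmp2, the closest paralogue of Bmp4 and a ligand made by several intestinal cell types, endothelial cells among them, overlapped between the fractions and was highest in the libraries numbered 4. Its values were 125, 106, 110 and 264 CPM in PDGFRα- libraries 1 to 4 and 84.2, 57.3, 117 and 195 CPM in PDGFRα+ libraries 1 to 4. PDGFRα+ library 4 thus lay above PDGFRα- libraries 1 to 3, and PDGFRα+ library 2 was the lowest of all 8. The log2 fold change came to -0.42 ± 0.42 (SE, interval -1.38 to 0.54, edgeR adjusted p = 0.967) with the group alone and -0.46 ± 0.15 (SE, edgeR adjusted p = 0.157) with the number. In a test of the replicate number with the group in the model, which 4.28% of all tested genes passed, Bmp2 (edgeR adjusted p = 0.00138) and Gdf6 (0.0484) passed and the other 6 members did not (Bmp5 0.0778, others 0.227 to 0.952). The summed RNA of the 6 endothelial markers was 429 CPM in PDGFRα- library 4 and 98.7 CPM in PDGFRα+ library 4, the highest value of each group, and it was lowest in both groups in library 2 (17.5 and 6.35 CPM), where Bmp2 was lowest too. Pecam1 was at 132 CPM in PDGFRα- library 4 and at 4.63 to 35.2 CPM in the other 7 libraries, and Cdh5 and Kdr at 113 and 97.9 CPM against at most 26.9 and 24.7 CPM. Between PDGFRα- libraries 1 and 3 the order differed, with endothelial sums of 23.8 and 63.6 CPM and Bmp2 at 125 and 110 CPM. Sox6, of the telocyte list, was also highest in library 4 of each fraction. It was at 26.9 CPM in PDGFRα- and 41.0 CPM in PDGFRα+ library 4, against at most 7.64 and 6.10 CPM in the others. The part of endothelial or telocyte RNA in the level of Bmp2 was not tested. Without PDGFRα- library 4 the log2 fold change of Bmp2 with the group alone was -0.01, and with the number in the model and both libraries of number 4 left out it was -0.46 ± 0.185 (SE).

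**Figure D3:**
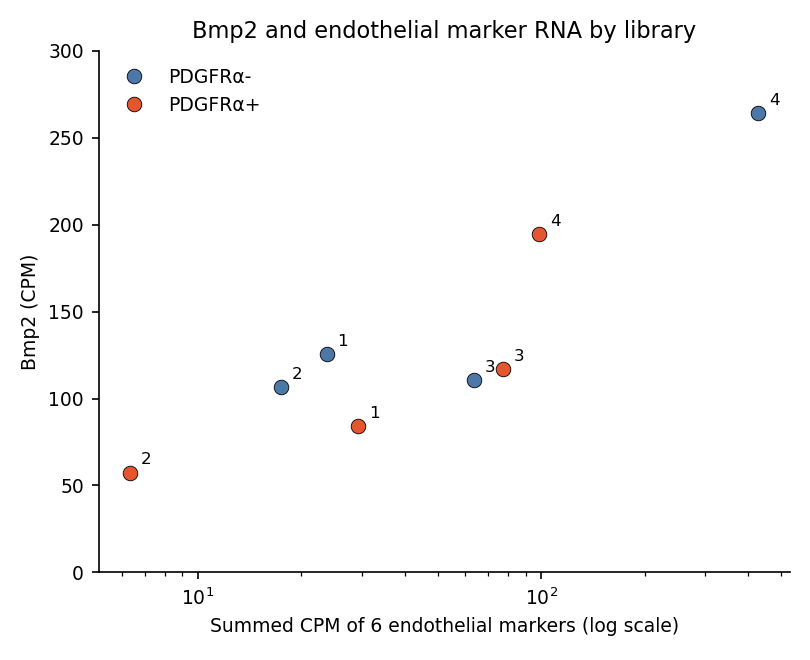
Bmp2 in CPM (y axis, linear) against the summed CPM of Pecam1, Cdh5, Kdr, Tie1, Lyve1 and Prox1 (x axis, log scale) in each library, labelled by replicate number and coloured by fraction. Library 4 of each fraction is highest on both axes (429 and 264 CPM in PDGFRα-, 98.7 and 195 CPM in PDGFRα+), and library 2 of each is lowest on both.

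The remaining 3 members had low levels and wide intervals. Bmp7, a ligand needed for kidney development, stood at 2.16, 1.96, 1.25 and 3.01 CPM in PDGFRα- libraries 1 to 4 and at 0.974, 6.10, 0.936 and 10.5 CPM in PDGFRα+ libraries 1 to 4. PDGFRα+ libraries 2 and 4 thus lay above, and libraries 1 and 3 below, every PDGFRα- library, with raw counts of 149 and 141 against 34 and 29. The mean hides this split, at 2.10 ± 0.727 and 4.62 ± 4.59 CPM (SD, n = 4 each), and the log2 fold change of 1.13 ± 0.82 (SE, interval -0.63 to 2.89, edgeR adjusted p = 0.920) does not exclude equal levels or a several-fold difference. With the number it was 0.50 ± 0.83 (SE, edgeR adjusted p = 0.900). Limma-voom with the group alone put it at -0.06.

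Bmp3, a divergent member that opposes other BMPs in bone, was at 1.83, 0.151, 0.468 and 8.39 CPM in PDGFRα- libraries 1 to 4, from 45, 3, 6 and 167 counts. In PDGFRα+ libraries 1 to 4 it was at 0.831, 2.50, 4.42 and 5.05 CPM. PDGFRα- library 4 was the highest, and PDGFRα- libraries 2 and 3 were the lowest of all. Its log2 fold change came to 0.23 ± 1.02 (SE, interval -1.96 to 2.42, edgeR adjusted p = 0.995), and it was -0.16 and -0.12 without PDGFRα- library 2 or 3, -0.07 without PDGFRα+ library 4 and 1.95 without PDGFRα- library 4. With the number it was 1.19 ± 1.16 (SE, edgeR adjusted p = 0.794). Gdf10, the closest paralogue of Bmp3, stood at 13.2, 10.2, 2.11 and 9.85 CPM in PDGFRα- libraries 1 to 4 and at 6.91, 7.62, 3.81 and 15.3 CPM in PDGFRα+ libraries 1 to 4. Library 3 was the lowest of each group, and the groups overlapped throughout. Its log2 fold change came to -0.08 ± 0.54 (SE, interval -1.24 to 1.08, edgeR adjusted p = 0.996) with the group alone and 0.02 ± 0.42 (SE, edgeR adjusted p = 0.996) with the number.

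Levels of different genes were compared as CPM per kb of exonic length. In PDGFRα- libraries the order was Bmp4 at 63.4 ± 8.86, Bmp2 at 42.6 ± 21.2, Gdf6 at 30.8 ± 6.48, Bmp6 at 13.6 ± 3.18, Bmp5 at 5.07 ± 2.19, Gdf10 at 1.70 ± 0.908, Bmp7 at 0.521 ± 0.181 and Bmp3 at 0.366 ± 0.521 CPM per kb (SD, n = 4). Ranges of neighbours overlapped between Bmp4 and Bmp2, Bmp2 and Gdf6, Gdf10 and Bmp7, and Bmp7 and Bmp3. Within libraries, the first gene of these pairs was the higher one in 3, 2, 4 and 3 of 4 libraries. In PDGFRα+ libraries Bmp4 led at 78.6 ± 8.62, above Bmp2 at 31.9 ± 16.7 in 4 of 4 libraries and without overlap, followed by Bmp6 at 25.7 ± 2.73, Bmp5 at 14.7 ± 6.63 and Gdf6 at 14.1 ± 6.69 CPM per kb (SD, n = 4). There, Bmp2 and Bmp6 overlapped, as did Bmp5 and Gdf6, each first gene being the higher one in 2 of 4 libraries. Gdf6 was above Bmp6 in 4 of 4 PDGFRα- libraries without overlap, and below it in 4 of 4 PDGFRα+ libraries without overlap.

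Summed over the 8 genes, the ligand RNA was 158 ± 25.7 CPM per kb in PDGFRα- and 168 ± 12.9 CPM per kb in PDGFRα+ libraries (SD, n = 4), with ranges that overlapped (129 to 188 and 156 to 183). Bmp4 made up 44.6%, 44.5%, 44.3% and 29.8% of that sum in PDGFRα- libraries 1 to 4, while its share was 51.4%, 52.3%, 46.6% and 37.8% for PDGFRα+ libraries 1 to 4. Its lowest share in each fraction was in library 4, where Bmp2 took 39.5% and 31.3%. The share of Gdf6 was 16.7% to 21.6% in PDGFRα- and 3.13% to 12.7% in PDGFRα+ libraries, and that of Bmp6 was 7.49% to 9.28% and 12.9% to 18.7%, in both cases without overlap. Bmp5 took 1.50% to 6.25% and 4.41% to 13.5%. Bmp3, Bmp7 and Gdf10 each stayed at or below 1.68% in every library. The shares of 1 library depend on each other, and they were not tested.

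**Figure D4:**
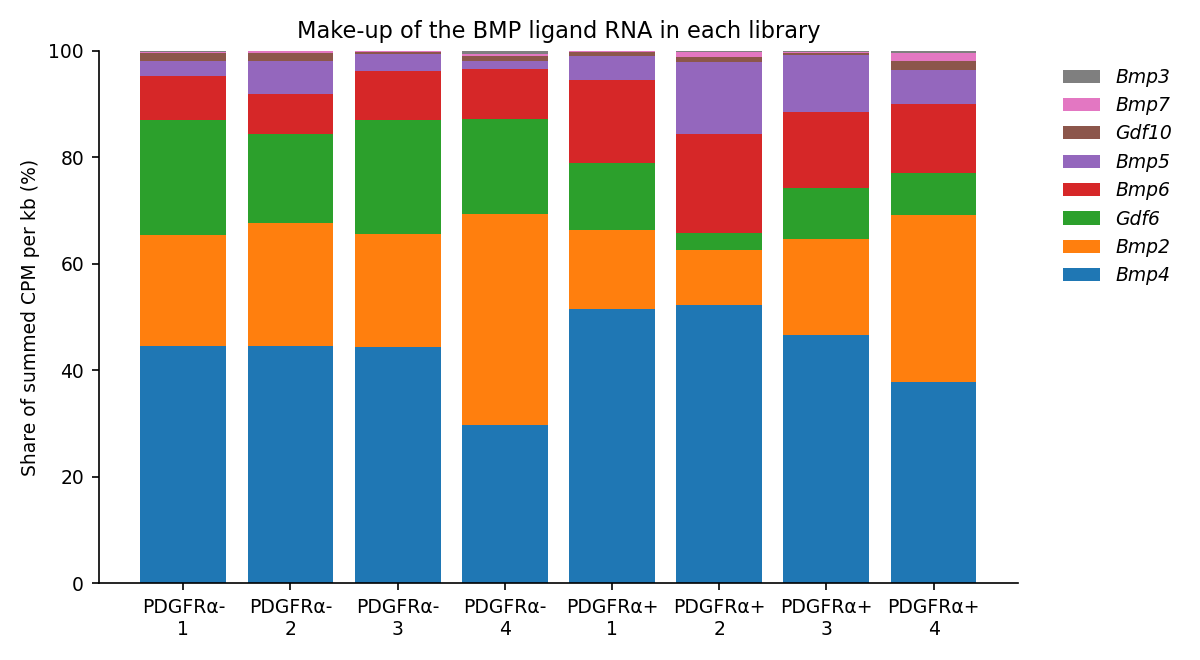
Share of each ligand gene in the summed CPM per kb of the 8 genes (y axis, percent) in each library (x axis, fraction and replicate number). Bmp4 and Bmp2 together fill most of every bar, the Gdf6 segment is larger in all 4 PDGFRα- bars (16.7% to 21.6%) than in any PDGFRα+ bar (3.13% to 12.7%), and the Bmp6 segment is larger in all 4 PDGFRα+ bars.

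Among the 6248 other tested genes with a mean of at least 20 CPM, those whose log2 CPM followed a member most closely over the 8 libraries were sought for Bmp5, Bmp6 and Gdf6. These correlations (Pearson's r, n = 8) describe libraries that share fraction, number and depth, and no p is attached to them. Bmp5 was followed by Ilk, which encodes integrin-linked kinase (r = 0.99), by Pla2r1, a phospholipase A2 receptor gene (0.97), and by P2ry1, a purine nucleotide receptor gene (0.96). Ilk was at 60.9 to 81.0 CPM in PDGFRα- and 83.0 to 121 CPM in PDGFRα+ libraries. Bmp6 was followed by Cspg4, the NG2 proteoglycan gene used as a pericyte marker (0.97), by Rab31, a vesicle traffic gene (0.97), and by Myh9, a non-muscle myosin gene (0.96). Cspg4 was at 22.1 to 49.8 and 59.0 to 103 CPM, whereas Rgs5, the most abundant of the 5 pericyte markers, was at 718 to 1467 and 561 to 1110.5 CPM. Of those 5 markers 4 were tested and 1, Cspg4, passed with the number (edgeR adjusted p = 0.0402), where 2.27% of all tested genes did. Their sum was 750 to 1513 CPM in PDGFRα- against 671 to 1182 CPM in PDGFRα+ libraries, and the part of pericyte RNA in the values of Bmp6 was not tested. Gdf6 was followed by the stress-response transcription factor gene Atf4 (0.97), by Nabp1, a single-stranded DNA binding protein gene (0.96), and by Eif4enif1, which encodes a partner of the cap-binding protein eIF4E (0.96).

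Of the other genes of the pathway, 67 on a list of ligands, receptors, antagonists, SMADs, response genes and processing enzymes were in the table and 50 were tested. With the group alone 0 were higher and 1 lower in edgeR, where 0.192% and 0.0511% of all tested genes were, and 11 of 50 had an unadjusted p under 0.05, where 6.95% of all did. With the number 3 were higher and 3 lower, where 1.34% and 0.933% of all tested genes were, and 13 of 50 had an unadjusted p under 0.05, where 11.7% of all did. The counts by role that follow are small and are read against these shares. The median log2 fold change of the 50 was -0.04 with the group alone and -0.05 with the number. Apart from Gdf11, other ligands of the family were scarce. Of 14 further BMP and GDF genes 4 were tested, and the other 10 had no more than 28 counts in any library. Of those tested the highest were Gdf11 at 20.3 ± 8.77 and 23.6 ± 2.92 CPM and Gdf15 at 4.22 ± 2.84 and 4.61 ± 3.00 CPM (SD, n = 4), and both missed the threshold (edgeR adjusted p = 0.975 and 0.996).

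Of 11 tested receptor and coreceptor genes 1 was higher in edgeR with the number (1.34% of all tested genes) and 0 passed with the group alone. Bmpr1b, which encodes a type I BMP receptor, was at 9.53, 24.4, 18.7 and 11.0 CPM in PDGFRα- libraries 1 to 4 and at 40.4, 51.1, 36.4 and 21.2 CPM in PDGFRα+ libraries 1 to 4, which overlapped only by PDGFRα- library 2 and PDGFRα+ library 4. Its log2 fold change came to 1.23 ± 0.34 (SE, edgeR adjusted p = 0.232) with the group alone and 1.26 ± 0.24 (SE, edgeR adjusted p = 0.0107) with the number. The most abundant genes of this list were the coreceptor gene Tgfbr3 at 937 ± 267 and 838 ± 119 CPM and the type II receptor gene Bmpr2 at 236 ± 35.7 and 233 ± 21.2 CPM (SD, n = 4). For these the adjusted p was 0.970 and 0.997 (edgeR, group alone), and exons of Tgfbr3 overlap those of Gm43422 on the same strand.

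Of 14 tested antagonist and modulator genes, 2 were higher and 2 lower with the number, where 1.34% and 0.933% of all tested genes were. The lower ones were Grem1 and Chrdl1, which encode secreted proteins that bind BMPs. Grem1 was at 889 to 1358 CPM in PDGFRα- and 348 to 779 CPM in PDGFRα+ libraries (edgeR adjusted p = 0.113 with the group alone, 5.63e-04 with the number). Chrdl1 was at 33.5 to 51.3 and 8.81 to 24.1 CPM and also passed with the group alone (edgeR adjusted p = 0.0399, and 5.03e-04 with the number). The higher ones were Vwc2 at 22.2 ± 6.09 and 50.8 ± 22.1 CPM and Nbl1 at 94.2 ± 31.5 and 137 ± 54.7 CPM (SD, n = 4), with edgeR adjusted p = 0.211 and 0.857 with the group alone and 0.0230 and 0.0474 with the number. Vwc2 and Nbl1 encode further secreted BMP-binding proteins. Fstl1, a follistatin-like gene and with Grem1 the most abundant of this list, was at 892 ± 106 and 1116 ± 89.1 CPM (SD, n = 4) and did not pass (edgeR adjusted p = 0.718 and 0.146 with the number). Of the 5 marker genes of trophocytes and adventitial fibroblasts 2, Grem1 and Cd81, were lower with the number, where 0.933% of all tested genes were. Ackr4, Cd34 and Pi16 did not pass and overlapped between the fractions. The 5 summed to 1392 to 2107 CPM in PDGFRα- and 916 to 1314 CPM in PDGFRα+ libraries. Of these sums Grem1 alone gave 889 to 1358 and 348 to 779 CPM. This marker RNA was higher in the PDGFRα- libraries without overlap, as were Gdf6 and the sum of the 5 fibroblast markers. Among single tested genes 2.36% were so. The part of this marker RNA in the values of Gdf6 was not tested.

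Downstream of the ligands, 1 of 10 tested response genes and 0 of 4 SMAD genes passed (edgeR, with the number, where 2.27% of all tested genes did). Id2, a target gene of BMP signalling, was at 94.8 ± 17.0 CPM in PDGFRα- and 62.1 ± 10.1 CPM in PDGFRα+ libraries (SD, n = 4), with a log2 fold change of -0.61 ± 0.18 (SE, edgeR adjusted p = 0.300) with the group alone and -0.61 ± 0.15 (SE, edgeR adjusted p = 0.0402) with the number. Id3 was at 133 ± 23.7 and 105 ± 26.1 CPM and the inhibitory SMAD gene Smad7 at 81.3 ± 13.1 and 85.2 ± 14.4 CPM (SD, n = 4), neither past the threshold with the number (edgeR adjusted p = 0.347 and 0.928). The transducer genes Smad1, at 109 ± 20.4 and 111 ± 8.60 CPM, and Smad5, at 85.4 ± 12.1 and 98.5 ± 10.6 CPM (SD, n = 4), did not pass (edgeR adjusted p = 0.959 and 0.672 with the number), and exons of Smad5 overlap those of Gm27301 on the same strand. Of the 10 response genes 4 had an unadjusted p under 0.05 in each model, where 6.95% (group alone) and 11.7% (with the number) of all tested genes did. Their median log2 fold change was -0.22 with the group alone and -0.21 with the number, and 4 of the 10 had a positive one in each model. No SMAD gene had an unadjusted p under 0.05 in either model. Of 7 genes of proteases that cut BMP precursors or their antagonists 0 passed, with 0 at an unadjusted p under 0.05 for the group alone and 1 with the number. The most abundant were Pcsk5, a proprotein convertase gene, at 495 ± 103 and 571 ± 124 CPM, and Bmp1, which despite its name encodes a metalloprotease, at 361 ± 52.7 and 334 ± 35.8 CPM (SD, n = 4).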

How the data were processed

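Per the labels' protocols, RNA of sorted cells went into a SMARTer Stranded Total RNA-Seq Pico kit, and libraries were read on an Illumina NextSeq. The submitters' processing notes name GRCm38 together with cutadapt 3.4, STAR 2.7.3a, featureCounts 2.0.1 and DESeq2, without strand setting or annotation release. The authors deposited raw counts per gene and library. Their deposited table also holds size-factor-scaled counts, rounded to whole numbers and treated as a score, which were not tested here. For the comparison the authors deposited per gene a dispersion, p-values before and after adjustment, and the change between groups both as a ratio and on the log2 scale.

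Counts were fitted with edgeR 4.0.16 (R 4.3.3; TMM, filterByExpr, robust quasi-likelihood), 2-sided, with the group as the only term and, as an alternative, with the replicate number as a block, adjusted over all 15643 tested genes. DESeq2 1.42.0, limma-voom (limma 3.58.1), other normalizations and filters, and leaving out libraries were further alternatives. The fits were tested on simulated data. Exonic lengths and positions are from GENCODE M21. Total counts of 12.9 to 35.1, in units of 1000000, set the precision, and reads amplified without molecular identifiers cannot be counted as independent molecules. Every pair of the 8 libraries differed by more than counting noise (chi-square over its degrees of freedom 35.7 to 154).

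Pairing was checked by correlating, for each number, how its 2 libraries deviated from their group means: r was 0.23, 0.18, 0.02 and 0.25 for numbers 1 to 4. Differently numbered libraries were not set beside these values, which therefore do not establish pairing. A DESeq2 model with number and group gave the authors' dispersions to within 1.58e-04% for 23282 genes, which is why the fit with the number stands beside the other.

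The members and gene lists were chosen with earlier results of these data known. Named genes are all members, other pathway genes past the threshold in either edgeR fit, the 2 most abundant tested genes of each list and, for members past the threshold, the 3 genes with the highest correlation.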

Additional observations from a re-analysis of the deposited data

Results flagged for a closer look

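Among 50 groups of 4 libraries examined (the members and the named pathway genes, in CPM), 2 held a library far from the other 3, and chance alone marks about 1 in 20 such groups. Bmp2 was at 264.1 CPM in PDGFRα- library 4, with a gap to the next library of 0.88 of the whole range of the group. Bmp1 was at 387.5 CPM in PDGFRα+ library 1, with a gap of 0.897 of the range.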

How the results depend on the processing

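With the group alone, edgeR called 0 members higher and 0 lower, 0 and 1 other pathway genes, and 38 of all tested genes. With the replicate block these counts were 2 and 1, 3 and 3, and 355. DESeq2 gave 2 and 0, 1 and 3, and 205 with the group alone, and 2 and 1, 4 and 5, and 789 with the replicate block. Limma-voom with the replicate block gave 2 and 1, 4 and 5, and 582. Without a low-count filter the group alone gave 2 and 1, 2 and 3, and 277. Leaving out 1 library at a time with the group alone gave 0 to 1 members higher and 0 lower, 0 to 1 other pathway genes in each direction, and 7 to 49 genes in all. With the replicate block, leaving out 1 number gave 0 to 2 members higher, 1 lower, 0 to 2 other pathway genes higher, 2 to 3 lower, and 196, 281, 99 and 300 genes in all without numbers 1 to 4. Same-numbered libraries correlated at 0.23, 0.18, 0.02 and 0.25 for numbers 1 to 4, and 4.28% of all tested genes passed the test of the number. These correlations were not set beside those of differently numbered libraries, so they do not establish pairing. A call that differs under the block is not a measure of effect size.

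The log2 fold changes of Bmp5 (1.32 to 1.85), Bmp6 (0.73 to 1.13), Bmp4 (0.26 to 0.41), Gdf6 (-1.42 to -0.84) and Bmp2 (-0.81 to -0.01) kept their sign under all 21 alternatives. Adjusted p ran from 2.32e-07 to 0.516 for Bmp5, from 2.37e-04 to 0.253 for Bmp6 and from 3.1e-07 to 0.752 for Gdf6. Bmp3 turned to -0.16, -0.12 and -0.07 without PDGFRα- library 2, PDGFRα- library 3 or PDGFRα+ library 4, and ran from -0.16 to 1.95 over the left-out libraries with the group alone, and from 0.22 to 2.20 over the left-out numbers with the replicate block. Over the left-out numbers Bmp7 ran from 0.0063 to 1.055. Bmp7 turned to -0.0555 in limma-voom with the group alone. Gdf10 turned to 0.0179 with the replicate block, to 0.0031 in DESeq2 with the replicate block, and to 0.18, 0.0054 and 0.16 without PDGFRα- library 1, PDGFRα+ library 1 or PDGFRα+ library 3, in a range of -0.53 to 0.18 over the left-out libraries. With the replicate block it was 0.35 without number 1 and 0.18 without number 2. The cause of these turns was not tested. Without division by length Bmp4 made up 29.82% of the ligand sum in PDGFRα- and 34.64% in PDGFRα+ libraries, and Bmp2 made up 29.93% and 21.45%. The place of Bmp4 above Bmp2 in the PDGFRα- means thus depended on the division by length. The number test passed 3 members without a low-count filter.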
